A study of Hydra viridissima with 4 samples.

Results

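Shared open regions that ranked higher without algae were 781 of the 10256 regions of the green hydra genome in which a peak of open chromatin was called in all 4 libraries, and of 117973 regions in all. Peaks of the 4 lists were merged wherever they shared at least 1 bp. In each library the highest fold enrichment of a shared region was turned into a percentile rank among the 10256 shared regions, so that 0 is the weakest and 100 the strongest. A region was kept when its rank in the aposymbiotic library was at least 15 points above its rank in the symbiotic library, both in the replicate 1 pair and in the replicate 2 pair. The choice therefore used the fold enrichments of all 4 libraries, and folds, ranks and tag numbers of the 781 regions are given below as a description with no test.

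The animals were whole Hydra viridissima of clone 2. The aposymbiotic group had no algae and the green, or symbiotic, group carried them, with 2 biological replicate libraries in each group. Every library came from 50 large animals without buds or gonads that were kept at 24 degrees C, were last fed brine shrimp 2 days earlier and were held in filtered medium with penicillin and streptomycin, so both groups had the same antibiotics. Animals of a library were pooled and each group is 1 clone, so the spread between libraries is not a spread between single animals or strains, and the labels do not say how the animals lost their algae.

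Green hydra houses unicellular algae inside the epithelial cells that line its gut, and the algae pass sugars made by photosynthesis to the host. Animals freed of algae live on prey alone, so the pair of states allows one clone to be compared with and without its symbiont. ATAC-seq reads open chromatin by the cuts of the transposase Tn5, and open stretches are typically promoters, enhancers and other sites where proteins displace nucleosomes. The libraries hold all cell types of the animal mixed together, so a region open in fewer cells and a region less open per cell cannot be told apart. No genome assembly is named by the sources used here and no gene annotation was used, so regions are named by scaffold and by positions counted from 1, and no gene or sequence is given for them.

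The libraries differed in depth, which sets the precision of every rank. The lists held between 21481 and 87128 peaks, and the background level that the peak caller used for the whole genome was 9.39 and 6.80 tags for aposymbiotic and symbiotic replicate 1, and 16.7 and 13.5 tags in aposymbiotic and symbiotic replicate 2. A tag is 1 piled-up read or fragment. The labels name no day or batch, and peak names carry a date-like mark, different in every library, whose meaning is not stated in the sources used here. Ranks over the 10256 shared regions correlated at 0.747 between the aposymbiotic libraries and at 0.667 between the symbiotic libraries. Between conditions the correlation was 0.689 in the replicate 1 pair, 0.683 in the replicate 2 pair, 0.708 between symbiotic replicate 1 and aposymbiotic replicate 2, and 0.603 between aposymbiotic replicate 1 and symbiotic replicate 2. These values describe regions that share their libraries and carry no p-value. Libraries of 1 condition were thus not always closer to each other than to libraries of the other condition.

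The 781 regions were 7.62% of the shared regions. The same rule turned round, a rank at least 15 points higher with algae in both pairs, found 811 regions or 7.91%. The sets were of nearly equal size. Ranks sum to the same total in every library, so the equal sizes say nothing of a gain or loss of open chromatin over all regions. In the replicate 1 pair alone 22.3% of the shared regions ranked at least 15 points higher without algae and 22.9% with algae, and in the replicate 2 pair alone the shares were 22.6% and 22.8%.

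**Figure D1:**
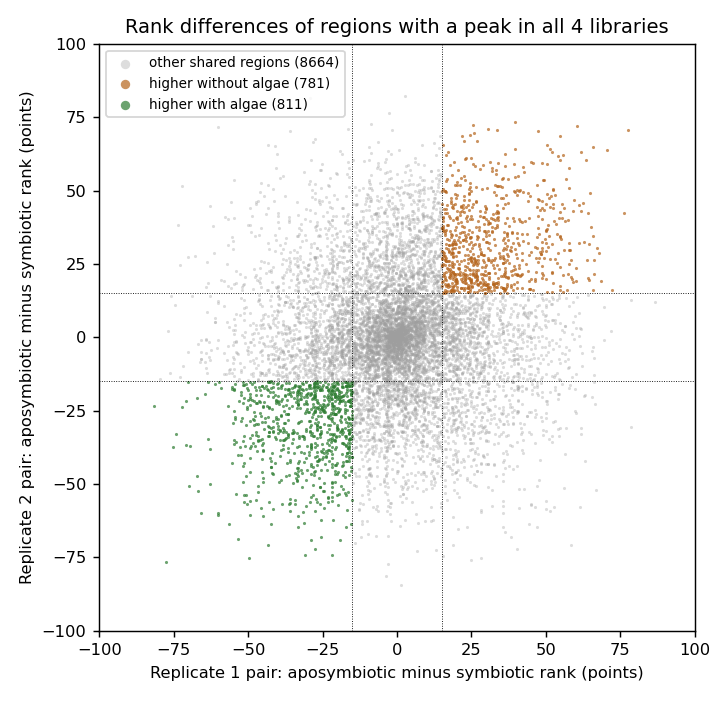
Each point is 1 of the 10256 shared regions, placed by its rank in the aposymbiotic minus its rank in the symbiotic library, in percentile points, in the replicate 1 pair (horizontal axis) and the replicate 2 pair (vertical axis). Dotted lines stand at 15 points to either side of 0, and the 781 regions higher without algae fill the upper right corner and the 811 higher with algae the lower left.

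The regions were of middling strength without algae and weak with them. Their fold enrichment in aposymbiotic replicate 1 had a median of 3.32 and ran from 2.38 to 6.38. In aposymbiotic replicate 2 the median fold was 3.29, with a range of 2.29 to 6.83. In symbiotic replicate 1 the median fold was 2.95, with a range of 2.10 to 4.87, and in symbiotic replicate 2 it was 2.84, with a range of 1.83 to 4.57. The symbiotic folds of these regions were low for those libraries, in which the median over all shared regions was 3.49 and 3.48. The aposymbiotic folds lay above the 2.98 and 3.01 of all shared regions in replicates 1 and 2.

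In ranks, the median was 61.6 and 59.6 in aposymbiotic replicates 1 and 2, and 27.3 and 22.4 in symbiotic replicates 1 and 2. The median difference was 28.9 points in the replicate 1 pair and 29.3 points in the replicate 2 pair, and the largest differences were 77.5 and 73.2 points. The libraries of 1 condition differed from each other by a median of 10.4 points in aposymbiotic and 11.6 points in symbiotic animals over the same regions, without regard to sign. The rank in both aposymbiotic libraries lay above both symbiotic ranks in 718 of the 781 regions, against 19.7% of all shared regions. The rule uses this contrast, so nothing is read from that count.

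Because symbiotic folds ran higher over all shared regions, a higher rank was not always a higher fold. The median ratio of aposymbiotic to symbiotic fold was 1.13 in the replicate 1 pair and 1.18 in the replicate 2 pair for the 781 regions, and 0.867 and 0.876 for all shared regions. The fold itself was higher without algae in both pairs in 655 of the 781 regions, against 10.4% of the shared regions. Both aposymbiotic folds lay above both symbiotic folds in 450 of them, against 6.20% of the shared regions. In 7 of the 781 regions the fold was lower without algae in both pairs although the rank was higher, against 54.4% of the shared regions. All of these counts follow in part from the rule, which used the same folds. For the 811 regions of the opposite direction the median ratios were 0.681 and 0.662, farther from 1 than those of the 781 regions, since ranks set the overall excess of symbiotic folds aside.

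Neither the strongest nor the weakest shared regions met the rule often. A region whose ranks all lie less than 15 points from the same end of the scale cannot meet it. The cause of the low shares farther from the ends was not tested. None of the 781 regions had a mean rank over the 4 libraries above 90, where 877 shared regions lay, and none had one of 10 or less. The share of regions that met the rule was highest, 13.3%, at mean ranks between 40 and 50, and was 3.59% between 10 and 20 and 0.792% between 80 and 90. In the mirror set these shares were 12.3%, 5.49% and 1.47%. In both symbiotic libraries 272 of the 781 regions, or 34.8%, ranked at or below 25, beside 11.96% of all shared regions. In both aposymbiotic libraries 7 of them, or 0.896%, ranked above 90, beside 7.34% of all shared regions. These ranks are the ones the rule used, and nothing is read from the counts. A region that was weak with algae and missed the calling threshold in a symbiotic library is by construction not among these regions.

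Each fold that the rule ranked is made of the tags at the summit and the local background, so both are given as a description of the choice. The median number of tags at the strongest summit of the 781 regions was 39 in aposymbiotic replicate 1 and 69 in aposymbiotic replicate 2, where all shared regions had 34 and 61. In symbiotic replicates 1 and 2 it was 24 and 46, where all shared regions had 30 and 58. The local background, which the caller raises where the surroundings hold more tags, had values near those of all shared regions. Its median in the 781 regions was 10.4 tags in aposymbiotic and 7.45 tags in symbiotic replicate 1, and 19.2 and 15.2 tags in replicate 2. Over all shared regions it was 10.3, 7.39, 19.1 and 15.2 tags in the same order. It stood above the genome-wide level in 62.5% and 59.0% of the 781 regions in the replicate 1 pair and in 64.8% and 62.0% in the replicate 2 pair, beside 61.2%, 60.3%, 64.4% and 63.6% of all shared regions. Ranked by summit tags alone, 558 of the 781 regions were at least 15 points higher without algae in both pairs, beside 6.93% of all shared regions. Summit tags enter the fold that chose the regions, so this overlap is no separate support. With ranks among all peaks of a list, 387 of the 781 regions met the rule. Among peaks with a -log10 q of at least 5, 266 of them were still shared and 177 met it. With lists of equal length these were 267 and 263, and with summits within 100 bp 446 and 282. Most of the 781 regions thus left the set in these settings. The sets there held 453, 318, 416 and 350 regions and were no subsets of the 781.

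Few of these tag numbers fixed a rank tightly. Near the median of the shared regions, 15 rank points corresponded to 3.72 and 3.18 tags in the aposymbiotic and symbiotic library of replicate 1, and to 6.98 and 5.90 tags in those of replicate 2. An exact Poisson interval of 95% on the summit tags, carried over to ranks with the local background held fixed, was a median of 64.7 and 67.9 rank points wide for the 781 regions in aposymbiotic and symbiotic replicate 1. In replicate 2 it was 46.7 and 54.5 points wide. These intervals cover counting error only, and summits are chosen as the highest point of a peak. The intervals of the pair did not overlap in 10 of the 781 regions in the replicate 1 pair, against 0.38% of all shared regions, and in 85 in the replicate 2 pair, against 2.39%. They were apart in both pairs in 5 regions, against 0.0585% of the shared regions, and the opposite direction reached 0.156% of the shared regions. The intervals are built from the tags and folds that the rule ranked. Higher shares among the 781 regions thus follow in part from the choice and are no separate support. Intervals that overlap do not place a difference within counting error, so the counts of separate intervals are a strict reading and no test of the difference was made.

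The 5 regions whose intervals were apart in both pairs were chosen here after their values were seen, and each is described once. The region scaffold_3:7126974-7127399 had the largest smaller difference of all 781. Its folds were 5.20 and 4.13 in aposymbiotic replicates 1 and 2, and 2.56 and 2.28 in symbiotic replicates 1 and 2. These rested on 53, 72, 19 and 32 summit tags in the same order. The aposymbiotic ranks of 87.6 and 76.0 stood far above the symbiotic ranks of 10.1 and 5.18, and the strongest summits of all 4 libraries lay within 42 bp of each other.

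At scaffold_4:8152542-8152701 a narrow region of 160 bp had folds of 5.20 and 5.43 in aposymbiotic and of 2.95 and 2.70 in symbiotic replicates 1 and 2. Its summit tags were 53 and 95 without algae and 22 and 38 with algae. Both aposymbiotic ranks, 87.6 and 88.9, were above both symbiotic ranks, 27.3 and 16.7, and its summits lay within 23 bp.

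The other three were among the stronger members. Region scaffold_9:16863802-16864202 had folds of 6.05 and 6.65 in aposymbiotic and of 3.95 and 3.84 in symbiotic replicates 1 and 2, with 76, 149, 34 and 68 summit tags. Region scaffold_7:6876048-6876266 had folds of 6.36 and 5.09 in aposymbiotic and of 3.84 and 3.38 in symbiotic replicates. Region scaffold_7:12060110-12060305 had folds of 6.38 and 5.31 in aposymbiotic and of 4.47 and 3.54 in symbiotic replicates. In all 3 the aposymbiotic folds were above the symbiotic folds without overlap, and their symbiotic ranks were not low, from 45.9 to 73.0. Another shared region with intervals apart in both pairs, at scaffold_12:11213179-11213666, was no member. It differed by 8.43 and 5.42 points and ranked from 89.9 to 98.3 in the 4 libraries.

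The 10 regions with the largest smaller-of-the-pairs difference, between 54.6 and 70.8 points, were all weak with algae. Their symbiotic ranks ran from 0.283 to 27.3 and their aposymbiotic ranks from 60.1 to 88.9, so that the groups did not overlap in any of them, which the choice of the regions fixes. Aposymbiotic folds lay between 3.27 and 5.43 and symbiotic folds between 2.06 and 2.95. Scaffold 3 held 3 of the 10 regions and scaffold 4 held 2. These scaffolds held 888 and 726 of the 10256 shared regions and 76 and 66 of the 781. Nothing is read from so few regions.

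**Figure D2:**
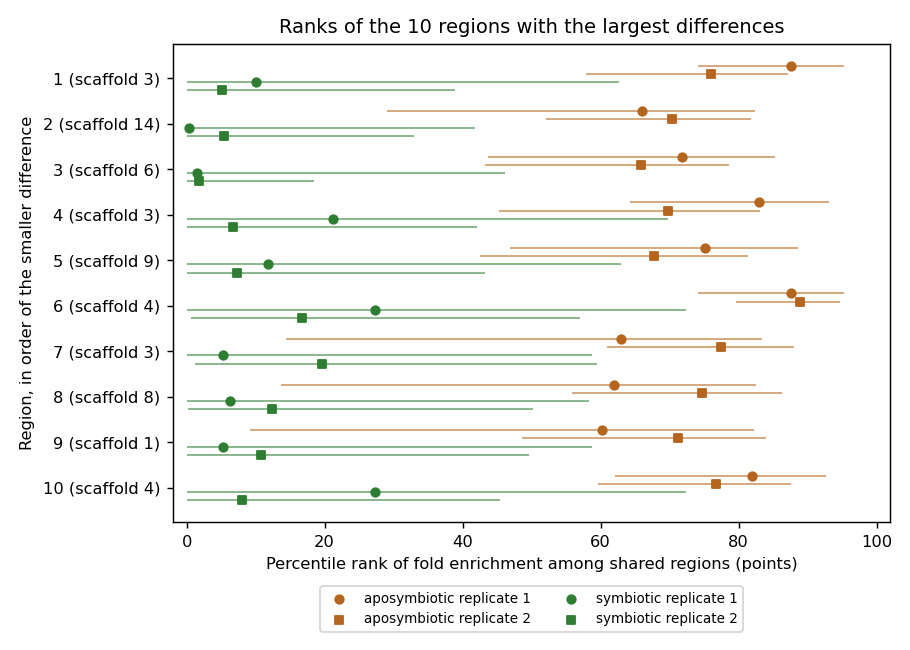
Percentile rank of fold enrichment among the shared regions (horizontal axis) for the 10 regions with the largest smaller difference (vertical axis, in that order with the scaffold), 1 point per library, with lines for the 95% Poisson interval of the summit tags carried over to ranks. The brown aposymbiotic points lie between 60.1 and 88.9 and the green symbiotic points between 0.283 and 27.3, and the lines of the pairs are apart in the replicate 1 pair in 2 regions and in the replicate 2 pair in 8.

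After the first, the region scaffold_14:6509534-6510238 had folds of 3.48 and 3.76 in aposymbiotic and of 2.20 and 2.29 in symbiotic replicates 1 and 2. Its ranks were 66.0 and 70.3 without and 0.283 and 5.48 with algae. It was a wide region of 705 bp that held several summits and a raised local background, so that its folds were low for its 50, 97, 22 and 44 summit tags. At scaffold_6:17007834-17008472 the folds were 3.77 and 3.53 in aposymbiotic and 2.30 and 2.06 in symbiotic replicates 1 and 2. The strongest summits of the libraries lay up to 419 bp apart there, so the 4 folds do not all describe the same spot.

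At scaffold_3:6021512-6021700 the folds were 4.62 and 3.73 in aposymbiotic and 2.82 and 2.35 in symbiotic replicates 1 and 2. At scaffold_9:890514-890795 they were 3.97 and 3.62 against 2.60 and 2.39. Both stood alone, with the nearest other shared region 21016 and 18976 bp away, and each held 1 peak with 1 summit in every library. At scaffold_3:15614158-15614362 the folds were 3.37 and 4.24 in aposymbiotic and 2.43 and 2.77 in symbiotic replicates 1 and 2. At scaffold_8:11965070-11965258 they were 3.33 and 4.04 against 2.44 and 2.57. In this pair of regions the counting intervals were apart in the replicate 2 pair and overlapped in the shallower replicate 1 pair. At scaffold_1:30517616-30517912 the folds were 3.27 and 3.82 against 2.43 and 2.52, and at scaffold_4:8084554-8084817 they were 4.52 and 4.18 against 2.95 and 2.42.

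The 5 regions that ranked highest without algae had their summits in register. Besides the scaffold 9 region given above, they lay at scaffold_2:8414017-8414221, scaffold_5:18439117-18439547, scaffold_12:7893814-7894023 and scaffold_8:10615521-10615903. All had 1 peak in each library, a width of 205 to 431 bp and strongest summits within 6 to 63 bp. Their aposymbiotic folds were 6.05 to 6.65 and their symbiotic folds 3.53 to 4.87. With algae they still ranked between 51.7 and 78.3, which is from near the middle of the shared regions upward. The scaffold 2 region differed little, by 18.7 and 15.8 points, with folds of 6.35 and 6.27 in aposymbiotic and of 4.61 and 4.57 in symbiotic replicates 1 and 2. The scaffold 5 region differed by 29.4 and 42.6 points, with folds of 6.16 and 6.50 against 3.97 and 3.53.

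The 5 widest regions, of 1349 to 2303 bp, were of another kind. The widest lay at scaffold_11:10758447-10760749 and had folds of 2.94 and 2.72 in aposymbiotic and of 2.56 and 2.75 in symbiotic replicates 1 and 2, so in replicate 2 the fold was slightly lower without algae. When ranked by summit tags in place of folds, its smaller difference reversed to -16.4 points. The others were at scaffold_3:10877119-10878846, scaffold_6:1795490-1797181, scaffold_8:11406193-11407840 and scaffold_7:11508507-11509855. Across all 5, folds were 2.56 to 3.73 without and 2.49 to 3.60 with algae, and the strongest summits of the libraries lay 412 to 1093 bp apart. Only 1 of the 5 had a single peak in every library. The intervals from counting overlapped in every pair of these 5 regions. Without symbiotic replicate 1, the mean difference of the scaffold 7 region reversed to -3.56 points.

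At the threshold, the 3 regions just inside had smaller differences of up to 15.1 points. These were the scaffold 3 region of 1728 bp just named, scaffold_4:2301041-2301843 and scaffold_7:2832235-2832985. The 3 regions just outside had smaller differences of at least 14.9 points and lay at scaffold_10:9007843-9008825, scaffold_1:2642947-2643182 and scaffold_7:4259217-4259467. The aposymbiotic folds of the 3 inside were 2.38 to 3.28 and those of the 3 outside 2.41 to 3.74. The scaffold 4 region just inside had 62 summit tags in both libraries of the replicate 2 pair, with a local background of 24.9 tags without and 27.3 tags with algae. Ranked by summit tags, its smaller difference reversed to -7.11 points.

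The 781 regions are those in which both pairs met the threshold, so the overlap of the pairs is part of the rule and is given as a description, not as support for the regions. Of the 2290 regions that ranked at least 15 points higher without algae in the replicate 1 pair, 34.1% did so in the replicate 2 pair as well, and these are the 781 regions. All shared regions reached 22.6% in that pair. In the opposite direction, 21.2% of the 2290 regions ranked at least 15 points higher with algae in the replicate 2 pair, where all shared regions reached 22.8%. The median difference of the 2290 regions in the replicate 2 pair was 3.97 points, far below the 15 points asked of them in the first pair. Read the other way, of the 2315 regions chosen on the replicate 2 pair 33.7% were past 15 points in the replicate 1 pair and 19.1% were past 15 points in the other direction. Their median difference in the replicate 1 pair was 5.53 points. Most regions past the threshold in 1 pair did not reach it in the other.

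The share past the threshold in the second pair was higher where the difference in the first was larger. Of regions at least 45 points higher without algae in the replicate 1 pair, 41.5% were at least 15 points higher in the replicate 2 pair and 20.6% at least 15 points lower (340 regions). Of those between 15 and 30 points the shares were 31.2% and 20.3% (1347 regions). When the replicate 2 pair made the choice, regions of at least 45 points came back in 39.7% of cases and were opposite in 16.8% (363 regions). The mirror direction gave similar values, with 41.1% of regions at least 45 points higher with algae in the replicate 1 pair coming back in the replicate 2 pair. Regions of 1 list are not independent replicates, so no p-value is given.

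**Figure D3:**
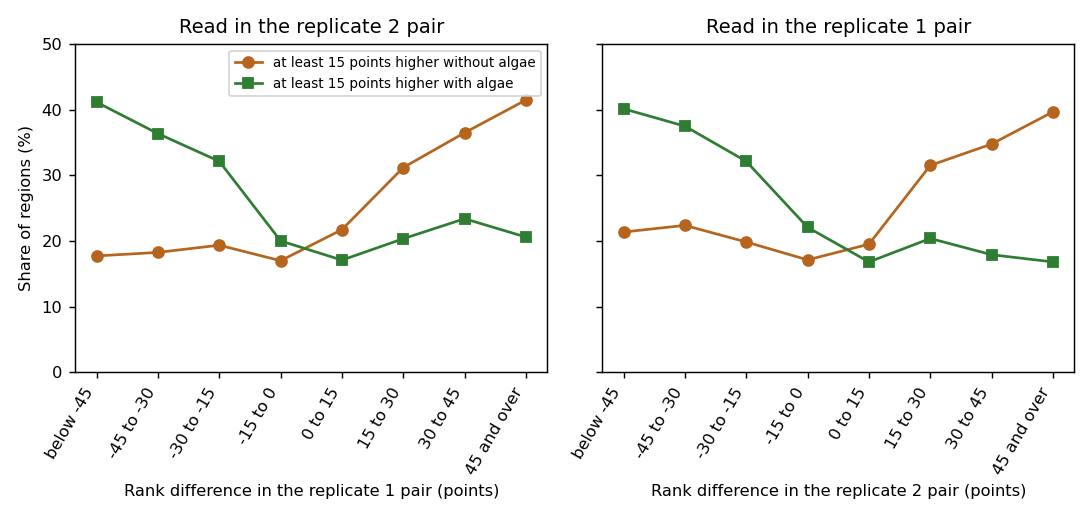
Share of shared regions (vertical axis, %) that ranked at least 15 points higher without algae (brown) or with algae (green) in 1 replicate pair, by their rank difference in the other pair (horizontal axis, points, aposymbiotic minus symbiotic). In the left panel the brown line rises to 41.5% in the rightmost bin, while the green line is at 20.6% there.

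The regions that ranked higher without algae had a lower median width than those that ranked higher with them. The width of the merged region, which the rule does not use but which comes from the same peaks, had a median of 353 bp in the 781 regions, 475 bp in the mirror set and 409 bp in all shared regions. Of shared regions up to 200 bp wide 11.2% ranked higher without algae and 6.21% with algae, and of those over 1000 bp wide 4.14% and 10.7% did. The shares changed in opposite directions with width, and crossed between 400 and 600 bp, where they were 6.56% and 7.94%. Regions over 1000 bp made up 21 of the 781 and 54 of the 811. The summed peak width per region differed by library. In symbiotic replicates 1 and 2 its median was 146 and 243 bp in the 781 regions and 225 and 405 bp in the mirror set. In aposymbiotic replicate 1 the order was the opposite, with 211 bp in the 781 regions and 177 bp in the mirror set, and in aposymbiotic replicate 2 the medians were 292 and 300 bp. In both replicate 1 libraries and in symbiotic replicate 2 the peaks were thus wider in the set that ranked higher in that library.

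**Figure D4:**
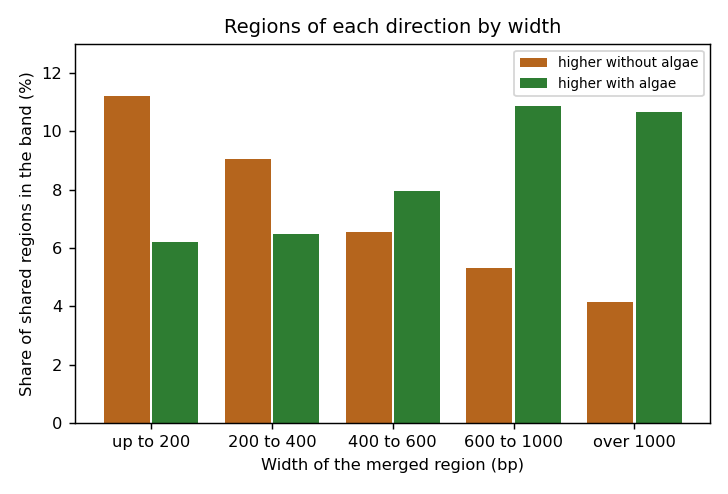
Share of the shared regions in each band of merged width (horizontal axis, bp) that ranked at least 15 points higher without algae (brown) or with algae (green) in both pairs (vertical axis, %). Brown bars fall from 11.2% to 4.14% from the narrowest to the widest band and green bars are higher in the bands above 400 bp.

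This contrast in width rested on some libraries more than on others. When 1 library was left out and mean ranks were compared, regions higher without algae had a median width of 333 bp against 328 bp for the mirror set without aposymbiotic replicate 1, and of 341 against 340 bp without symbiotic replicate 2. It was 322 against 431 bp without symbiotic replicate 1 and 311 against 402 bp without aposymbiotic replicate 2. With windows of 200 bp around summits in place of whole peaks the medians were 265 and 316 bp, and among regions with 1 peak in each library they were 317 and 364.5 bp. Among regions whose summits lay within 100 bp of each other they were 296.5 and 318.5 bp, beside 320 bp for all such regions.

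Regions with a single peak or summit were more frequent among the 781 than in the mirror set. None of the contrasts between sets of regions was tested, since regions of the same libraries are not replicates. A single peak in each of the 4 libraries was found in 80.8% of the 781 regions, 67.2% of the mirror set and 73.9% of all shared regions. A single summit in each library was found in 28.4%, 17.4% and 23.8%. The strongest summits of all 4 libraries lay within 100 bp of each other in 57.1% of the 781 regions, in 34.5% of the mirror set and in 53.4% of all shared regions. The median spread of the 4 summits was 79 bp, 151 bp and 88 bp in the same order. Summits were closest between the libraries in which a set was strong. In the 781 regions the aposymbiotic libraries placed the strongest summit at a median of 22 bp from each other and the symbiotic libraries at 39 bp. In the mirror set these distances were 79 bp and 29 bp.

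Position along the scaffolds did not set the 781 regions apart by much. Their median distance to the nearest other shared region was 6446 bp, beside 6424 bp for the mirror set and 6584 bp for all shared regions. The nearest shared region was itself one of the 781 in 63 cases or 8.07%, against 7.51% of all shared regions, which is a share near the background. The mean rank difference of that nearest neighbour had a median of -0.01 points. Another shared region lay within 1 kb of 109 of the 781, and in 16 of these cases, or 14.7%, it was also a member. Over all shared regions with a neighbour within 1 kb the share was 6.91%. The count of 16 names each adjoining pair of regions from both sides. In 10 of the 109 cases, or 9.17%, the neighbour was of the opposite direction, beside 8.43% over all shared regions. In the mirror set the neighbour within 1 kb shared the direction in 10.3% of cases, beside the same 8.43%.

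Regions called in 1 condition only were about as near to the 781 regions as to others. A region called in both aposymbiotic and in neither symbiotic library lay within 5 kb of 47 of them or 6.02%, against 6.25% of the shared regions and 8.75% of the mirror set. A region called in both symbiotic libraries only lay within 5 kb of 138 or 17.7%, against 15.2% of the shared regions and 14.3% of the mirror set. Regions that ranked higher without algae were thus not found nearer to regions called without algae only.

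Runs of such regions were short. With neighbours at most 20 kb apart there were 53 pairs and 4 runs of 3, which together held 118 of the 781 regions or 15.1%. The mirror set had 39 pairs and 4 runs of 3, which held 90 of the 811 regions or 11.1%. The share that the spacing of all shared regions would give was not computed, so no clustering is read from these counts. The most compact run lay at scaffold_9:3912908-3915588, where all 3 shared regions within 2681 bp were members and differed by 25.3 to 49.5 points. In its first region, at 3912908 to 3913239, the folds were 3.59 and 3.32 in aposymbiotic and 2.96 and 2.501 in symbiotic replicates 1 and 2. In the second, at 3913556 to 3913750, they were 2.55 and 2.61 against 2.14 and 2.35, and in the third, at 3915023 to 3915588, they were 3.21 and 2.88 against 3.01 and 2.67. The aposymbiotic folds were above the symbiotic fold of the same pair in each, with overlap between the groups in the third. The local background was raised across the run, from 26.9 to 27.3 tags in aposymbiotic replicate 2, where the genome-wide level was 16.7.

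The other 3 runs were at scaffold_10:11861789-11875198, scaffold_7:11508507-11524094 and scaffold_1:5818184-5852387. The scaffold 1 run also held 1 region of the opposite direction, and the smallest difference in these 3 runs was 15.1 points. No interval from counting was apart in any of the 12 regions of the 4 runs.

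All 781 regions lay on the 14 scaffolds with at least 100 shared regions each. The 8 other scaffolds held 80 shared regions, of which none was a member and 6 were of the mirror set. On the 14 scaffolds the share of shared regions that ranked higher without algae ran from 4.96% on scaffold 11 (33 of 665) to 13.9% on scaffold 14 (23 of 165). On scaffolds 1 and 2, which held the most of them, it was 8.34% (99 regions) and 7.87% (97 regions). The mirror share on scaffold 14 was 6.67% and on scaffold 11 it was 8.72%. On the 12 scaffolds between these ends the share was 5.68% to 9.09%. Among peaks with a -log10 q of at least 5 the share on scaffold 14 was 7.35% and that of all shared regions was 6.99%. Fewer regions were shared there, 4547 on all scaffolds, so this does not show that the higher share was absent. At thresholds of 20 and 25 points the scaffold 14 share was 11.5% and 10.3%, beside 4.79% and 3.00% of all shared regions. Members within 1 Mb of a scaffold end numbered 45, or 5.76%, beside 7.15% of all shared regions and 8.51% of the mirror set. Scaffold lengths were not used, so the end of the last called region stood in for the far end of each scaffold.

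**Figure D5:**
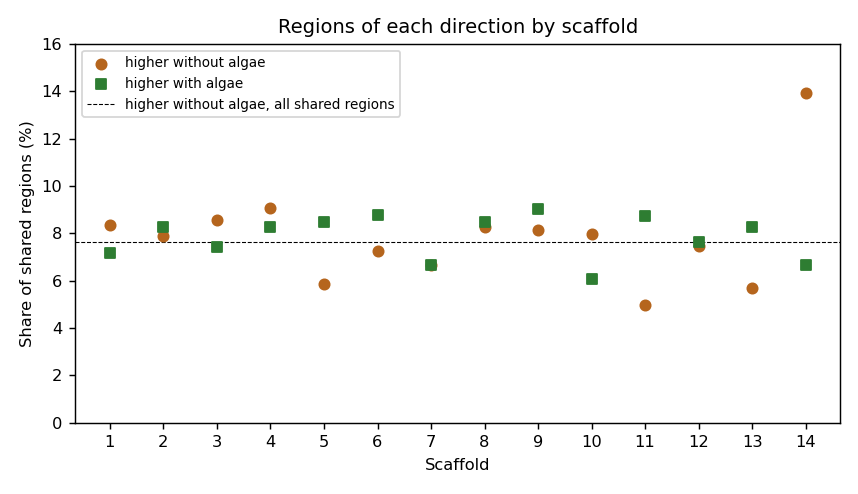
Share of shared regions (vertical axis, %) that ranked higher without algae (brown circles) or with algae (green squares) on each scaffold with at least 100 shared regions (horizontal axis, scaffold number). The dashed line marks the 7.62% of all shared regions that ranked higher without algae, and the highest brown point is scaffold 14 at 13.9%.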

How the data were processed

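The submitters' processing notes name MACS3 3.0.4, deepTools, Bowtie2 2.5.4 and Trim Galore 0.6.10. Neither settings nor a genome build are stated there. For each library the authors deposited its own peak list, with a fold enrichment ratio of the summit over background, a -log10 p-value and -log10 q-value, and a whole-number score of 10 times the latter. Column meanings follow the layout of the caller's lists. No deposited -log10 q was below 2. Repeated lines of a peak, 1 per summit, were reduced to the strongest.

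Ranks average ties. Summit tags and local background were solved for each peak from fold, (tags + 1) / (background + 1), and p-value, which returned the listed -log10 p within 0.001 for 100% of peaks. Read totals are unknown, PCR copies are not independent molecules, and intervals cover counting error only. The authors' folds of separately called lists served only to rank regions inside their own list. The smallest exact permutation p with 2 libraries per group, relabelled without regard to the pairs, is 0.333, and none was computed. Keeping the pairs allows fewer relabellings and so no smaller value.

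The regions, lists and rules were chosen with earlier results of these data known. Regions named in the text are the 10 with the largest smaller difference, the 5 with the highest lower aposymbiotic rank, the 5 widest, runs of 3 or more within 20 kb, and 3 on either side of the threshold; regions whose counting intervals were apart in both pairs were added after their values were seen. Replicate numbers come from the labels, and same-numbered libraries were paired because the rule pairs them. Alternatives were other thresholds, rank scales, overlap rules and list filters, no replicate block, and each library left out. GC content and motifs, planned for the case that a genome came with the files, were not analysed here. Analyses used Python 3.11.15, numpy 2.4.6, pandas 2.3.3 and scipy 1.17.1, and the procedures were tested on simulated data.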

Additional observations from a re-analysis of the deposited data

How the results depend on the processing

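The count of 781 regions became 491 and 308 at thresholds of 20 and 25 points, 453 when ranks were taken among all peaks of a list, 318 at a -log10 q of at least 5, 416 with lists of equal length, 350 among regions with summits within 100 bp and 1820 with no replicate block, a fit that compares mean ranks and asks less of each pair. It stayed within 1.5 times under the other alternatives with all 4 libraries. Ranking by summit tags and the limits to 1 peak per library or to summits within 100 bp were chosen after seeing the data. The log2 ratio of this count over that of the mirror set was -0.05, and -0.77 with ranks among all peaks. Of the regions past the threshold in the replicate 1 pair, 34.1% were past it in the replicate 2 pair, and 39.3%, 28.5% and 23.7% at 10, 20 and 25 points and 27.1% with ranks among all peaks. The median width of 353 bp was 265 bp with summit windows, 317 bp with 1 peak per library and 296.5 bp with summits within 100 bp. The median distance of 6446 bp was 15472.5 bp at the stricter q, 11636 bp at equal length, 8740.5 bp with 1 peak per library and 14315.5 bp with summits within 100 bp, where fewer regions are shared.

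The share whose nearest shared region was also a member, 8.07%, became 11.4%, 4.89% and 4.87% at 10, 20 and 25 points. Members made up 11.4%, 4.79% and 3.00% of all shared regions there. The same share became 5.74% with ranks among all peaks, 5.35% at the stricter q, 5.71% with summits within 100 bp and 18.1% with no replicate block. Members were 4.42%, 6.99%, 6.39% and 17.7% of all shared regions there. The share near a region called in aposymbiotic libraries only, 6.02%, became 9.65% with summit windows, 3.14% at the stricter q and 8.41% at equal length. The shared regions numbered 9097, 4547 and 5844 there. The share over all of them was not computed, so no closeness is read. The share of scaffold 14's shared regions that were members, 13.9% beside 7.62% over all scaffolds, became 7.35% beside 6.99% at the stricter q and 21.2% beside 17.7% with no replicate block. It was 10.3% beside 4.42% with ranks among all peaks and 10.9% beside 7.12% at equal length. The share with summits within 100 bp, 57.1%, became 44.8% with ranks among all peaks, 65.2% with summit windows, 87.7% at the stricter q, 78.8% at equal length, 66.5% with 1 peak per library and 100% by construction where summits had to lie that close. The main value stood beside 53.4% of all shared regions, a share not computed again elsewhere.

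With 1 library left out, mean ranks of the remaining libraries were compared, so counts rose to between 2080 without symbiotic replicate 2 and 4449 without aposymbiotic replicate 1. They were 3533 without symbiotic replicate 1 and 2431 without aposymbiotic replicate 2. The log2 ratio ran from -0.03 to 0.02, the median width from 311 to 341 bp and the median distance from 2870 to 6365.5 bp. The share with a member as nearest neighbour ran from 19.7% to 23.6%, where members were 20.1% to 23.9% of all shared regions. The scaffold 14 share ran from 24.3% to 30.8%, where all scaffolds gave 20.1% to 23.9%, and the summit share from 56.96% to 62.1%. The share near aposymbiotic-only regions ran from 8.86% to 73.3%. Such a region needed a call in every kept aposymbiotic and in no kept symbiotic library, which asks less than the main definition. No share over all shared regions was computed beside these values, so nothing is read from them. Of the 781 regions, between 683 and 722 were higher without algae, beside 20.1% to 23.9% of all shared regions, and each of these settings reuses 3 of the 4 libraries that chose the regions. Deviations of same-numbered libraries from their group means correlated at 0.106 over the shared regions. With 2 pairs this does not show that the numbers pair the libraries. Regions named only for a run or separate intervals, or no longer shared in a setting, were not checked, nor were all settings tried. Of the others, 3 reversed in rank difference and the rest kept their sign. By summit tags it was -16.4 points on scaffold 11 at 10758447 and -7.11 on scaffold 4 at 2301041. On scaffold 7 at 11508507 it was -3.56 without symbiotic replicate 1 and 42.3 without symbiotic replicate 2. The cause was not tested.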
